A study of Mus musculus with 5 samples.

Results

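DNA glycosylases open base excision repair, and their transcripts were examined in bone marrow pro-B cells with and without *Mef2c*. The 10 listed genes were *Ung*, *Smug1*, *Tdg*, *Ogg1*, *Mutyh*, *Nthl1*, *Neil1*, *Neil2*, *Neil3* and *Mpg*, listed by the known function of their products. A probe set of its own was present for 8 of the 10, among 17323 genes in all. *Neil2* is not analysed here, and the probe set for *Tdg* is shared with its pseudogene copies *Tdg-ps* and *Tdg-ps2*, so it was kept out of the counts. RNA was measured on 5 Affymetrix Mouse Genome 430 2.0 arrays, 3 of control pro-B cells and 2 of pro-B cells from Vav-Cre Mef2cfl/fl mice, all 9 months old. Vav-Cre deletes floxed alleles throughout the haematopoietic system, so the loss of *Mef2c* was not restricted to B cells. Per the methods, a control animal either had no Cre and carried the floxed allele as Mef2c fl/+ or Mef2c fl/fl, or had Vav-Cre with a single floxed allele, and the sources used here do not say which kind each control array came from. Pro-B cells were sorted from bone marrow as B220+IgM−CD43+CD24+ live cells. The methods call the sorted samples independent but do not give the number of mice behind each array, so p-values measure the spread between these 5 samples.

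A DNA glycosylase recognises certain damaged or misplaced bases, flips such a base out of the helix and cuts the bond to its sugar, leaving an abasic site. The endonuclease APEX1 then nicks the strand, DNA polymerase beta fills the gap, and a ligase closes it, or a longer patch is made with replication enzymes. The glycosylases divide by substrate into those for uracil (UNG, SMUG1, TDG), for oxidised guanine and its mispairs (OGG1, MUTYH), for oxidised pyrimidines (NTHL1 and the NEIL proteins) and for alkylated purines (MPG). In the B lineage UNG is best known for removing the uracil that activation-induced deaminase writes into antibody genes of mature cells. Pro-B cells have not reached that stage, and they rearrange the heavy chain locus by the RAG recombinase instead.

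The 250 bases before the start of the 4 genes that were lower in *Mef2c*-deficient pro-B cells, and of *Neil1*, which was not, show what letters these promoters share. The sequences come from RefSeq on GRCm38.p6 and read from 5′ to 3′ on the strand of the gene. Capitals mark every match, on either strand, to the motifs searched, which were TATTTATA and TATTTTTA of MEF2, CANNTG of E proteins, TTTCGCGC, TTTGGCGC, TTTCCCGC and TTTGGCGG of E2F, CCAAT of NF-Y and GGGCGG of SP factors. No 2 matches overlap in the windows printed. *Ung* lies on the + strand with its window at chr5:114130185-114130434, *Smug1* on the − strand at chr15:103163285-103163534, and *Mutyh* on the + strand at chr4:116807484-116807733, the first of its 2 RefSeq starts. *Neil3* lies on the − strand at chr8:53639066-53639315 and *Neil1* on the − strand at chr9:57148306-57148555.
Ung: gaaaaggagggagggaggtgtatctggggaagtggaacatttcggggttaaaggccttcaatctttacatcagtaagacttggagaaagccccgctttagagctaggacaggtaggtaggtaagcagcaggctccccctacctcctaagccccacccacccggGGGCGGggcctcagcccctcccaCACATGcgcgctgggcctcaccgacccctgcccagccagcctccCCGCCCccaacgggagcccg
Smug1: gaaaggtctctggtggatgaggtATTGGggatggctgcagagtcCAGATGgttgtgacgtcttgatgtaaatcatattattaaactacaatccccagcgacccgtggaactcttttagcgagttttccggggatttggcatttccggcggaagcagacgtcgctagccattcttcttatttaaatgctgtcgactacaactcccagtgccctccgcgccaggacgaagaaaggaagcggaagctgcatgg
Mutyh: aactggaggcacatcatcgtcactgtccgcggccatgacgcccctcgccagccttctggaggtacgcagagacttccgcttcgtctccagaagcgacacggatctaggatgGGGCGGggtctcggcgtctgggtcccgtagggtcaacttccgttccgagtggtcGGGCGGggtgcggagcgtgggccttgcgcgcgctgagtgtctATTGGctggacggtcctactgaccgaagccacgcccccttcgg
Neil3: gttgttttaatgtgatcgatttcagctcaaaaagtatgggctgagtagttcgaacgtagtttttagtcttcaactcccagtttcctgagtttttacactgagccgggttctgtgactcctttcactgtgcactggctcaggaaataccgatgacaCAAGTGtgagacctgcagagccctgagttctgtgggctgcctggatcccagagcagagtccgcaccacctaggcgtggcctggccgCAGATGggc
Neil1: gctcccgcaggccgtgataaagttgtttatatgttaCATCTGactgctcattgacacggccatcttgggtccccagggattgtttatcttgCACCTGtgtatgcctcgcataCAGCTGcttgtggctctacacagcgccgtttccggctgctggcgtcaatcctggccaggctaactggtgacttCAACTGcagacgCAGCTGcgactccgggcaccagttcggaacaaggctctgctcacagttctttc

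A MEF2 motif was found in none of the 10 windows of the 9 glycosylase genes with a promoter sequence, and in 3.9% of 32851 promoter windows of the same length. *Ung* held 1 E box, CACATG, 64 bases before its start and 2 SP motifs. *Neil1* held 5 E boxes, *Neil3* 2, *Smug1* 1 the first *Mutyh* window 0 and the second 2, and 66.2% of all windows held at least 1. CCAAT was present once in each of *Smug1* and this *Mutyh* window, and 33.8% of all windows held it. The SP motif had 2 matches in this *Mutyh* window and in none of *Smug1*, *Neil3* and *Neil1*, where the share of all windows was 32.7%. An E2F motif was found only in the *Nthl1* window, 132 bases before its start, and in 1.96% of all windows. With the second *Mutyh* window counted, an E box was present for each of *Ung*, *Smug1*, *Mutyh* and *Neil3*, and no other motif group was. These matches describe the letters of the windows, and binding was not measured here.

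*Mef2c* itself, which encodes the deleted transcription factor, had deposited values of 14006, 20854 and 17220 on control replicates 1 to 3 and of 7379 and 6219 on *Mef2c*-deficient replicates 1 and 2. Both deficient arrays lay below all 3 control arrays, with a log2 fold change of −1.34 (standard error 0.28, limma adjusted p = 0.103). Its probe set may lie outside the deleted exon, which the sources used here do not settle, so it is only a partial check of the labels. By level *Mef2c* lay in the highest of the groups described below, where the median gene was at −0.91 and 32.7% of genes were called lower. Of all genes, 28.4% had both deficient arrays below all control arrays, which limits this check further. All 11 measured B lineage markers, among them *Cd79a*, *Rag1*, *Ebf1* and *Igll1*, were above the array median on every array. So were all 7 measured neutrophil markers and 7 of 11 T and NK cell markers, so this level alone does not separate cell types. The deposited values are linear, reach 2045829 and have natural logarithms of 1.15 to 14.5, so each appears to be an exponential to base e of a log2 signal. If so, 2-fold in deposited values equals 1.62-fold in signal. Fold changes below are of the deposited values unless named as signal. A call here needed a deposited fold of 2 or more and a limma p, before adjustment, of 0.05 or less. No probe set passed an adjusted p under 0.05 or under 0.10 in limma (0 of 23809, smallest adjusted p = 0.102), while 7038 had an unadjusted p under 0.05, and the methods' unpaired test gave 7 genes at an adjusted p under 0.05. Other limma fits gave 6191 genes with housekeeping centring, 1164 without *Mef2c*-deficient replicate 1 and 1869 without replicate 2, where the 1 deficient array left is assumed to vary like the controls, as in every such fit below. Every call below is therefore at the unadjusted threshold.

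Of the 8 measured glycosylases, 4 were lower in *Mef2c*-deficient pro-B cells, *Ung*, *Smug1*, *Mutyh* and *Neil3*, where 16.6% of all genes were called lower. None of the 8 was called higher (0 of 8), against 9.56% of all genes. On both *Mef2c*-deficient arrays 7 of the 8 lay below all 3 control arrays, an arrangement found in 28.4% of all genes, and *Neil1* was the exception. Of 9 measured housekeeping genes 5 were called lower and 0 higher (*Gusb*, *Hprt*, *Pgk1*, *Sdha* and *Tbp*), with a median log2 fold change of −1.03, beside −1.12 for the 8 glycosylases. By level, all 9 housekeeping genes but only 2 of the 8 glycosylases lay in groups 8 to 10 of those described below. The median gene of these groups was at −0.91 to −1.10. Without *Mef2c*-deficient replicate 2 the log2 fold changes were −1.57 for *Ung*, −1.59 for *Mutyh*, −3.10 for *Smug1* and −1.40 for *Neil3*, each from 1 deficient array. The calls fell in more than 1 substrate class, with both measured uracil enzymes, 1 of the pair for oxidised guanine and 1 of the 3 for oxidised pyrimidines. Fewer cells of a type and less RNA per cell cannot be told apart in such sorted bulk samples.

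**Figure D1:**
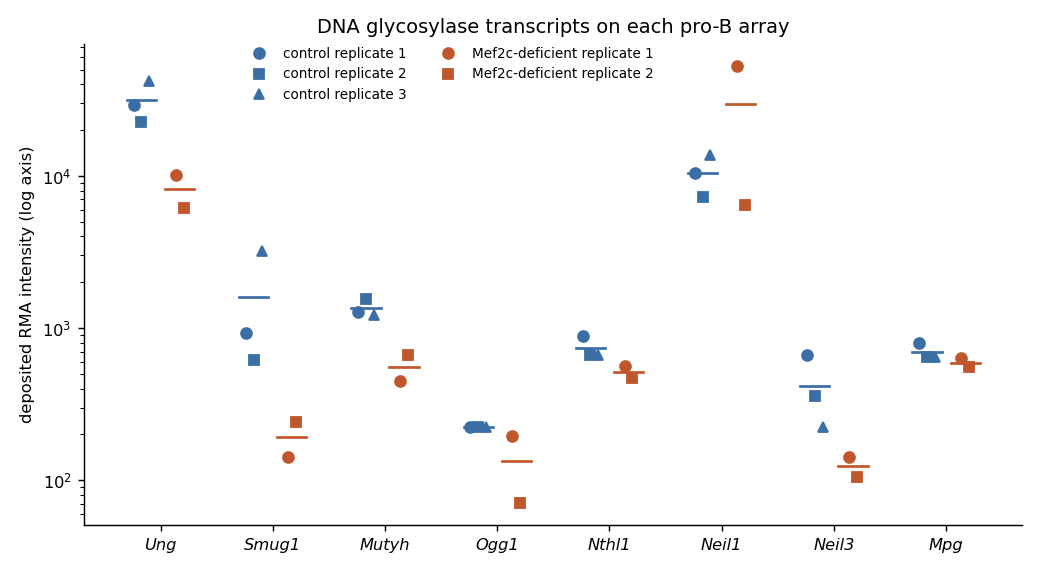
Deposited RMA intensity (vertical log axis) of the 8 measured glycosylase genes (horizontal axis) on each of the 5 arrays. Each symbol is 1 array, blue for the 3 control and orange for the 2 *Mef2c*-deficient arrays, and bars are group means. The *Ung* values of 10189 and 6122 lie below the control values of 22431 to 42319, while *Neil1* reads 52861 on 1 deficient array and 6469 on the other.

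Uracil glycosylases had the largest fold changes among the 8 genes. *Ung* encodes the main enzyme that removes uracil misincorporated during replication or made by deaminated cytosine. Its deposited values were 29379, 22431 and 42319 on the control arrays and 10189 and 6122 on the *Mef2c*-deficient arrays. The groups were well separated, and the higher deficient array was at less than any control array. Control cells averaged 31376 ± 10094 (SD, n = 3) and *Mef2c*-deficient cells 8155 ± 2876 (SD, n = 2), 3.84-fold lower as deposited and 2.54-fold lower in signal. The log2 fold change was −1.94 (standard error 0.40, 95% interval −2.99 to −0.90), with a limma adjusted p = 0.103. *Ung* makes a nuclear and a mitochondrial protein from different starts, and the 1 probe set gives no separate value for them.

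*Smug1*, which encodes a uracil glycosylase that also removes 5-hydroxymethyluracil, had deposited values of 930.2, 619.9 and 3216 on the control arrays and of 143 and 241 on the *Mef2c*-deficient arrays. Control replicate 3 stood 4.15-fold above the mean of the other control arrays, and even the lowest control array was above both deficient arrays. *Smug1* fell by 2.73 on the log2 scale (standard error 0.78, 95% interval −4.75 to −0.71, limma adjusted p = 0.121), from 1589 ± 1418 (SD, n = 3) to 192 ± 69.0 (SD, n = 2), or 3.71-fold in signal. It was below the array median on 1 array, *Mef2c*-deficient replicate 1. The call was lost without *Mef2c*-deficient replicate 1, at a log2 fold change of −2.35, and without replicate 2, at −3.10.

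TDG removes thymine or uracil opposite guanine, and also the oxidised forms of 5-methylcytosine made by TET enzymes. The probe set shared by *Tdg*, *Tdg-ps* and *Tdg-ps2* read 6260.3, 5443 and 10245 on the control arrays and 3525 and 1837 on the *Mef2c*-deficient arrays. Its log2 fold change was −1.47 (standard error 0.45, limma adjusted p = 0.127), and the sources of its signal among these 3 loci cannot be told apart. This probe set met the rule for a lower call but was kept out of the counts. *Mbd4*, the other mammalian glycosylase for thymine opposite guanine and no member of the list, read 5231, 3611 and 4416 against 2037 and 1995. It was called lower, with log2 fold change −1.12 (standard error 0.27, limma adjusted p = 0.107), which was 1.71-fold in signal. By level *Mbd4* lay in group 9 of those described below, where the median gene was at −1.10 and 40.6% of genes were called lower.

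For oxidised guanine, *Mutyh* was called lower and *Ogg1* was not. *Mutyh* encodes the enzyme that removes adenine paired with 8-oxoguanine. It read 1277, 1560.2 and 1225 on the control arrays and 448 and 660.4 on the *Mef2c*-deficient arrays. The spread within each group was small beside the gap between them. From 1354 ± 180.4 (SD, n = 3) it fell to 554 ± 150.4 (SD, n = 2), 2.48-fold as deposited, with a log2 fold change of −1.31 (standard error 0.29, 95% interval −2.06 to −0.56, limma adjusted p = 0.106). In signal the fold was 1.87, under a threshold of 2, and the call was also lost at −0.96 after a further quantile normalization, at −0.81 after cyclic loess and at −0.54 with housekeeping centring.

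*Ogg1*, whose product removes 8-oxoguanine itself, read 223 on each of the 3 control arrays and 195 and 70.7 on the *Mef2c*-deficient arrays. The 3 control values are the same number, so their SD was 0, and the limma error of this gene rests on the deficient arrays and on the spread of other genes. Such ties are common here, since 42.8% of probe sets had at least 1 and 3.46% had all 3 control arrays tied. The log2 fold change of *Ogg1* was −0.92 (standard error 0.48, 95% interval −2.16 to 0.31, limma adjusted p = 0.242), and both deficient arrays were below the array median. It was called lower after cyclic loess (−1.33), without *Mef2c*-deficient replicate 1 (−1.66), with a further quantile normalization (−1.22) and with array median centring (−1.16).

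The glycosylases for oxidised pyrimidines differed among themselves. *Neil3*, whose product acts on single-stranded DNA and on interstrand crosslinks and is made mainly in dividing cells, read 662, 357 and 224 on the control arrays and 142 and 104 on the *Mef2c*-deficient arrays. The lowest control value was closer to the deficient values than to the highest control value, but the groups did not overlap. *Neil3* fell by 1.62 on the log2 scale (standard error 0.52, 95% interval −2.97 to −0.28, limma adjusted p = 0.135), from 414 ± 225 (SD, n = 3) to 123 ± 27.0 (SD, n = 2), 2.18-fold in signal. Both deficient values were below the array median. Its call was lost without control replicate 2 (−1.66), without *Mef2c*-deficient replicate 1 (−1.85) and without *Mef2c*-deficient replicate 2 (−1.40), and with housekeeping centring (−0.86) or an offset of 100 (−1.12).

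*Nthl1*, the mammalian endonuclease III, read 885, 664 and 664 on the control arrays and 559 and 466 on the *Mef2c*-deficient arrays. Both deficient values were lower than every control value, by little. Its log2 fold change was −0.52 (standard error 0.27, 95% interval −1.21 to 0.17, limma adjusted p = 0.243), and it was not called.

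*Neil1*, which encodes a glycosylase that acts on oxidised pyrimidines and hydantoins, had the widest spread of the 8 genes between the deficient arrays. It read 10373, 7258 and 13810.2 on the control arrays and 52861 and 6469 on the *Mef2c*-deficient arrays. The first deficient array was above all other arrays and the second below them, 8.17-fold apart. The log2 fold change was 0.87 (standard error 0.95, 95% interval −1.58 to 3.31, limma adjusted p = 0.506). Without *Mef2c*-deficient replicate 2 it was called higher, at 2.38, from the 1 array at 52861, and without replicate 1 its log2 fold change was −0.65.

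*Mpg*, also called AAG, encodes the glycosylase for alkylated purines and hypoxanthine. It read 798, 647 and 647 on the control arrays and 634 and 550.4 on the *Mef2c*-deficient arrays, so the groups lay side by side without overlap. The difference had a log2 fold change of −0.23 (standard error 0.25, 95% interval −0.87 to 0.40, limma adjusted p = 0.492). The interval leaves out a deposited fold of 2 in either direction for this gene, and for none of the other 7. In 3 of the other scalings the sign turned, to 0.04, 0.07 and 0.54.

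**Figure D2:**
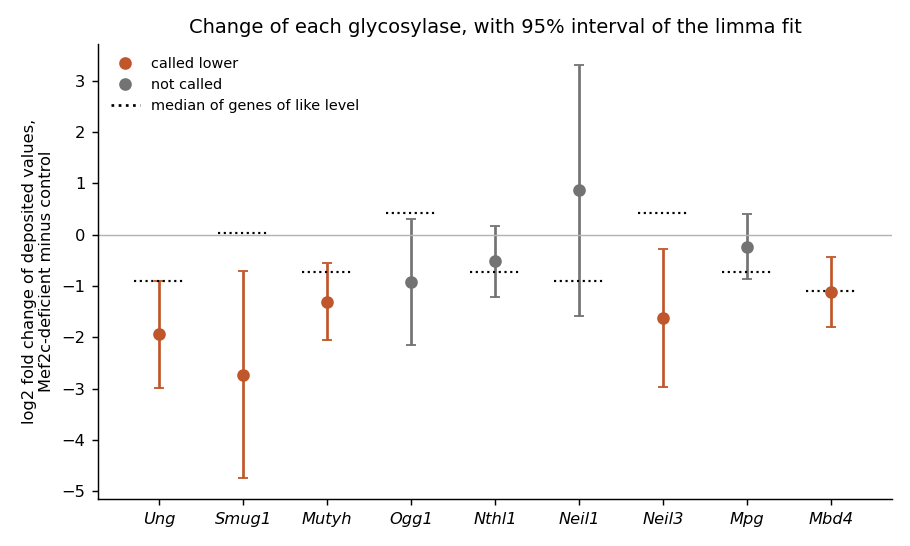
Log2 fold change in deposited value, *Mef2c*-deficient minus control (vertical axis), for the 8 glycosylases and *Mbd4* (horizontal axis), with the 95% interval of limma as bars. Orange points were called lower and grey points were not called. Dotted lines give the median of all genes of like level (10 groups by mean level), which was −0.91 for *Ung* and *Neil1* and 0.43 for *Ogg1* and *Neil3*.

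Fold changes in these arrays moved with the level of the transcript, so each member was set beside genes of like level. Genes were put in 10 groups of equal size by mean log2 value over all 5 arrays. In the group of *Ung* and *Neil1*, the highest, the median log2 fold change was −0.91 and 32.7% of genes were called lower. *Mutyh*, *Nthl1* and *Mpg* lay in the seventh, with a median of −0.73 and 25.3% lower, so that *Nthl1* (−0.52) and *Mpg* (−0.23) were less negative than the median gene of their level. *Smug1* lay in the sixth group, with a median of 0.03 and 15.4% lower. *Ogg1* and *Neil3* lay in the fifth, where the median was 0.43 and 9.41% of genes were lower. *Ogg1* (−0.92), not called, lay further below the median of its group than the called *Ung* (−1.94) and *Mutyh* (−1.31) did. A call needs a fall of 2-fold or more, which is further than the median of any of these groups. The 4 called genes were therefore below the median of their group by the rule itself, and among them the difference was widest for *Smug1*. The part of this trend with level in the called changes was not tested.

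**Figure D3:**
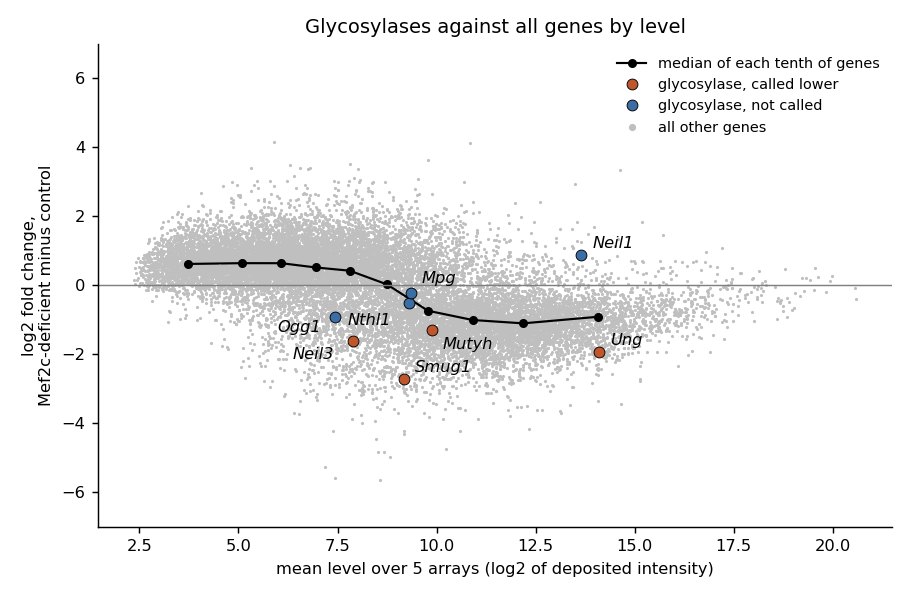
Log2 fold change, *Mef2c*-deficient minus control (vertical axis), against the mean log2 deposited intensity over the 5 arrays (horizontal axis), for all 17323 genes as grey dots and the 8 glycosylases as large points, orange where called lower. The black line joins the medians of 10 groups of genes by level, from 0.62 in the dimmest to −0.91 in the brightest, and *Neil1* lies well above it.

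The glycosylases were followed through 19 other settings, 16 of which refit the values. *Ung* was negative in all 16 refits, from −2.31 to −0.94 on the log2 scale, and called lower in 16 of the 19 settings. The exceptions for *Ung* were the pair of adjusted p thresholds and cyclic loess (−0.94, just under the fold threshold). *Smug1* ranged from −3.22 to −1.96 and *Mutyh* from −1.59 to −0.54, each called in 13 of 19, and *Neil3* ranged from −2.02 to −0.86 and was called in 10. *Ogg1*, not called in the reported fit, was also negative in all 16 refits, from −1.66 to −0.16. *Nthl1* and *Mpg* were called in none of the 19. In signal, a fold of at least 2 was reached by *Ung*, *Smug1* and *Neil3*, 3 of 8, where 10.5% of all genes were lower by that rule.

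**Figure D4:**
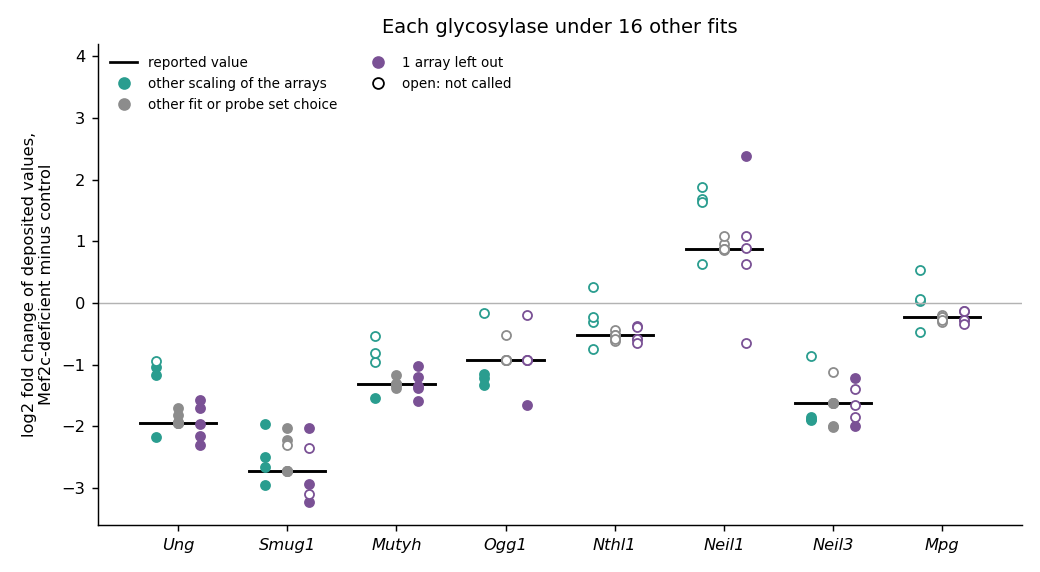
Log2 fold change in deposited value, *Mef2c*-deficient minus control (vertical axis), of each glycosylase (horizontal axis) under 16 other fits. Black bars are the reported values, green points other scalings of the arrays, grey points other fits or probe set choices and purple points fits with 1 array left out, with open points where the gene was not called. *Ung*, *Smug1*, *Mutyh*, *Ogg1* and *Neil3* stay below 0 throughout, and *Neil1* runs from −0.65 to 2.38.

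The enzymes that act after the glycosylases were described in the same way. Of 20 listed genes of the later steps 18 were measured, and 7 were lower, none higher (0 of 18) and 11 not called, with a median log2 fold change of −1.19, beside −1.12 for the 8 glycosylases and 0.04 for all genes. Of these 18, 12 lay in groups 8 to 10 by level, where the median gene was at −0.91 to −1.10 and 32.7% to 40.6% of genes were called lower. *Apex1*, the abasic site endonuclease that follows every monofunctional glycosylase, read 20027, 14755 and 10854 on the control arrays and 4815 and 19718 on the *Mef2c*-deficient arrays. Its groups overlapped (log2 fold change −0.60, standard error 0.68, limma adjusted p = 0.522). *Polb*, which fills the 1-base gap, read 4962, 3611 and 4435 against 3537 and 862, and its scaffold partner *Xrcc1* 9451, 9240.3 and 18927 against 8766 and 3399. Neither was called, at log2 fold changes of −1.30 (standard error 0.64) and −1.12 (0.57). *Lig3*, the ligase of the short patch, was dim, with means of 87.7 ± 26.4 (SD, n = 3) and 188 ± 124 (SD, n = 2), and its log2 fold change of 0.98 (standard error 0.55) was the only positive one of the 18. *Parp1*, which senses the nicked strand, missed the fold threshold narrowly at −0.998 (standard error 0.32, limma adjusted p = 0.134).

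Of the 7 called genes of the later steps, *Fen1*, *Lig1*, *Pold1*, *Pole* and *Rfc1* also act at the replication fork, from which long patch repair borrows its enzymes. *Fen1*, the flap endonuclease, fell from 4175 ± 718 (SD, n = 3) to 779 ± 137 (SD, n = 2), a log2 fold change of −2.42 (standard error 0.28, limma adjusted p = 0.102). *Lig1*, the replicative ligase, fell by 1.84 on the log2 scale, the polymerase delta subunit gene *Pold1* by 1.54 and the clamp loader subunit gene *Rfc1* by 1.27. *Pole*, the catalytic subunit of polymerase epsilon, fell from 11293 to 3929. *Poll*, a gap-filling polymerase of the same family as *Polb*, fell by 1.65, and *Huwe1*, a ubiquitin ligase with DNA polymerase beta among its substrates, by 2.23. *Pcna*, the sliding clamp, was not called (−0.38, standard error 0.32). In a list of 21 replication fork genes that shares *Fen1*, *Lig1* and *Pcna* with these steps, 10 were lower and 0 higher, with a median of −1.24, and both deficient arrays were below all control arrays in 18, beside 16.6%, 9.56% and 28.4% of all genes. All but 1 of them (20 of 21) lay in groups 8 to 10 by level. *Mcm4*, a subunit of the replicative helicase, fell by 2.10 on the log2 scale, *Mcm3* by 2.11, *Mcm5* by 1.96, *Mcm6* by 1.45 and *Mcm2* by 1.34. The other called fork genes were *Rfc5* (−1.66), *Pola1* (−1.24) and *Gins2* (−1.19). The count of lower fork genes moved when either *Mef2c*-deficient array was left out. It was 6 without control replicate 1 or 2, where 11.1% and 12.4% of all genes were lower. After a further quantile normalization, under cyclic loess and with housekeeping centring it was 2, where 8.5%, 8.3% and 3.94% of all genes were lower.

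Among genes that make, prevent or reverse the lesions, 2 of 18 measured were lower and 0 higher, where 16.6% and 9.56% of all genes were, with a median log2 fold change of −0.50. Of these 18, 13 lay in groups 8 to 10 by level. In those groups the median gene was at −0.91 to −1.10 and 32.7% to 40.6% of genes were called lower. *Nudt1*, also called MTH1, encodes the enzyme that clears oxidised guanine nucleotides before they enter DNA. It read 13595, 13088 and 10211 on the control arrays and 3201 and 1036 on the *Mef2c*-deficient arrays. No array of one group came near the other, and *Nudt1* fell by 2.74 on the log2 scale (standard error 0.54, limma adjusted p = 0.103). *Alkbh2*, which reverses alkylation of bases directly, read 842, 645 and 645 against 368 and 137, and fell by 1.65 (standard error 0.48, limma adjusted p = 0.123). *Dut*, the enzyme that keeps uracil out of DNA by clearing dUTP, was not called at −0.74 (standard error 0.38). Without control replicate 1 or 2, *Nudt1* was the 1 gene of the list called lower, where 11.1% and 12.4% of all genes were. The count rose without *Mef2c*-deficient replicate 1, where 1 deficient array was left.

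**Figure D5:**
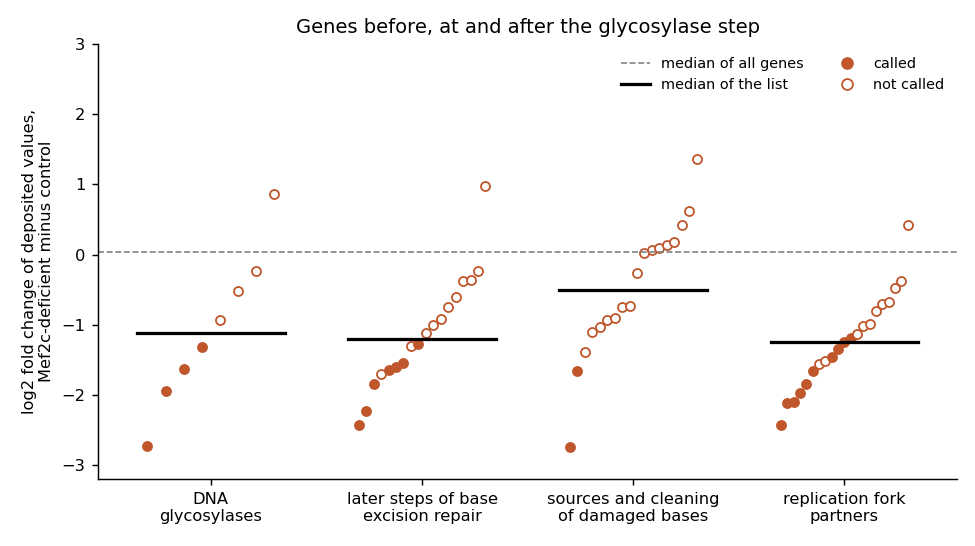
Log2 fold change, *Mef2c*-deficient minus control (vertical axis), of each measured gene in 4 lists, 8 glycosylases, 18 genes of the later steps of base excision repair, 18 of the sources and cleaning of damaged bases and 21 replication fork partners. Points are genes in order of their value, filled where called, black bars are list medians (−1.12, −1.19, −0.50 and −1.24) and the dashed line is the median of all genes, 0.04.

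Markers of other cells differed between arrays, in some lists on a single array and among erythroid genes on both *Mef2c*-deficient arrays. The summed deposited level of 11 measured T and NK cell genes was 21140 to 40290 on the control arrays, 18000 on *Mef2c*-deficient replicate 1 and 82420 on replicate 2, where the median gene was 2.96 higher on the log2 scale than on the other 4 arrays. The sum of the 11 B lineage markers was 1050000 to 1743000 on the control arrays, 1432000 on *Mef2c*-deficient replicate 1 and 719100 on replicate 2. Plasmacytoid dendritic cell genes (6 of 8 measured) summed to 52910 to 151500 in control and to 121700 and 168900 in *Mef2c*-deficient cells, and neutrophil genes (7 of 8) to 2106000 to 4517000 and to 2382000 and 5106000. Macrophage genes (7 of 7) summed to 3825 to 6817 in control and to 2672 and 7195, and mature B cell genes (5 of 6) to 46880 to 163100 and to 102100 and 325100. Erythroid genes (5 of 8) summed to 41890 to 73240 and to 19380 and 17340, a sum carried by *Car2*, while the other 4 had positive log2 fold changes and *Slc4a1*, the band 3 anion exchanger, was called higher at 2.71. Robust multiarray averaging gives no true 0, so no marker could be read as absent. With *Mef2c*-deficient replicate 2 left out, the log2 fold changes were −1.57 for *Ung*, −1.59 for *Mutyh*, −3.10 for *Smug1* and −1.40 for *Neil3*. Without replicate 1 they were −2.31, −1.03, −2.35 and −1.85, again from 1 deficient array. The part of these cells in the glycosylase values was not tested.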

How the data were processed

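Total RNA of FACS-sorted pro-B cells was hybridised by the authors to Affymetrix Mouse Genome 430 2.0 arrays. They made the deposited intensity values by robust multiarray averaging (RMA: background adjustment, quantile normalization and probe set summary), and their methods left out probe sets that failed detection calls. The deposited arrays nevertheless did not share the same distribution. Upper quartiles were 1478, 1470 and 1850 on the control arrays and 1072 and 968 on the *Mef2c*-deficient arrays. Lower quartiles were 42.0, 42.9 and 38.8 against 65.4 and 52.7. A further quantile normalization was among the other settings. Versions are not given in the sources used here. The deposited values are linear and appear to be e raised to the log2 signal. Here log2 of the deposited values of 23809 probe sets (26 control probe sets removed) was fitted with limma 3.58.1 in R 4.3.3 (lmFit, eBayes), *Mef2c*-deficient minus control, after a check on simulated data, and p-values were adjusted over all probe sets by Benjamini-Hochberg. By the platform annotation, 17621 probe sets had 1 gene symbol, 516 several and 5672 none. Each gene was counted by its brightest probe set over all arrays, and each glycosylase had only 1. No gene was counted from a probe set with several symbols, and the only such probe set described is that of *Tdg*. Array intensity carries no read depth, so precision rests on the 3 control and 2 *Mef2c*-deficient arrays. Across probe sets the control arrays correlated at 0.972 to 0.989 with each other, the deficient arrays at 0.913, and arrays of different groups at 0.909 to 0.940.

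The text names all listed glycosylases, *Mbd4*, every called gene of the other lists, and *Apex1*, *Polb*, *Xrcc1*, *Lig3* and *Parp1*. *Pcna*, *Dut* and the genes of the closing observations were named after their values were seen. The members and lists were chosen with earlier results of these data known. Alternatives covered the fold scale, thresholds, normalization, centring, dim probe sets, array weights, the test, the replicate number and each array left out.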

Additional observations from a re-analysis of the deposited data

How the results depend on the processing

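In the fit reported, no gene of the 4 lists passed an adjusted p under 0.05 or 0.10 in limma (0 of 8 glycosylases, 0 later genes, 0 sources and 0 fork partners). For the glycosylases, 4 called lower became 2 with housekeeping centring (*Smug1*, *Ung*), 2 with array weights and 2 with the methods' unpaired test (both times *Mutyh*, *Ung*), where 3.94%, 12% and 9.99% of all genes were lower, and 41% were higher with housekeeping centring. Housekeeping centring shifted the median of all genes from 0.04 to 0.81 and array median centring to −0.19. Housekeeping centring gave 2 lower (*Fen1*, *Huwe1*) and 1 higher (*Lig3*) later gene, 1 lower (*Nudt1*) and 2 higher (*Gadd45a*, *Tet1*) sources, and 2 lower and 1 higher (*Gins1*) fork partners. Further quantile normalization and cyclic loess each gave 3 lower later genes (*Fen1*, *Huwe1*, *Poll*), 1 higher source (*Gadd45a*), and 2 lower and 1 higher (*Gins1*) fork partners. In these 2 settings 8.5% and 8.3% of all genes were lower and 7.95% and 6.71% higher. Array median centring gave 6 lower sources and 16 lower fork partners, with 24% of all genes lower, and the methods' unpaired test 1 lower source (*Nudt1*) and 6 lower fork partners. *Mpg* turned to 0.039 (further quantile), 0.067 (cyclic loess) and 0.54 (housekeeping), *Nthl1* to 0.25 (housekeeping) and *Neil1* from 0.87 to −0.65 (without *Mef2c*-deficient replicate 1) or 2.38 (without replicate 2). Leaving out each array in turn gave 2 to 4 lower and 0 to 1 higher glycosylases, 6 to 10 lower and 0 to 1 higher later genes, 1 to 5 lower and 0 to 1 higher sources, and 4 (without *Mef2c*-deficient replicate 2) to 14 (without *Mef2c*-deficient replicate 1) lower fork partners. The share of all genes called moved in these settings too. Without 1 control array, 11.1% to 12.4% of all genes were lower and 5.58% to 7.51% higher, against 16.6% and 9.56% in the reported fit. Without either *Mef2c*-deficient array the shares also moved, and there 1 deficient array was left. The counts of the lists therefore cannot be read apart from those of all genes. The cause of these shifts was not tested. The sources used here do not say whether replicate numbers pair the samples. Deviations from the group mean correlated at 0.105 for number 1 and −0.0307 for number 2. This cannot settle it, since the deviations of the 2 deficient arrays mirror each other. With a replicate block the glycosylases kept 4 lower calls, and fork partners went from 10 to 5, where 11% of all genes were lower. No member had another probe set to try.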

Other observations

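The TET enzymes oxidise 5-methylcytosine into bases that TDG removes. *Tet1* read 81.1, 127 and 144 on the control arrays and 592 and 144 on the *Mef2c*-deficient arrays, so that only replicate 1 stood apart, and its log2 fold change of 1.36, with a standard error of 0.68, was not called. *Tet2* and *Tet3* had log2 fold changes of 0.14 (standard error 0.65) and 0.07 (0.65), with *Mef2c*-deficient replicate 2 the highest array for both. *Dnmt1*, the maintenance DNA methyltransferase, was below every control array on both deficient arrays and missed the fold threshold at −0.92 (standard error 0.34). *Gadd45a*, a stress-induced gene linked to DNA repair and demethylation, was above every control array on both, at 0.43 (standard error 0.29), and was not called. *Mgmt*, which reverses alkylation of guanine, read 457, 407 and 407 on the control arrays and 214 and 579 on the deficient arrays, with a log2 fold change of −0.27 (standard error 0.47).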
